A study of Mus musculus with 6 samples.

Results

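The genes described here encode receptors that pass signals to G proteins, together with genes named Gpr and a number. Some of the numbered genes, such as Gpr107, Gpr108 and Gpr137, encode Golgi or lysosomal membrane proteins. All are called receptor genes below, for these by name only. Membership went by symbol alone, although the set was chosen with earlier results of these data known. The pattern takes in the receptors for serotonin, dopamine, noradrenaline, acetylcholine, histamine, opioids and other neuropeptides, GABA, cannabinoids and adenosine. It takes in those for prostaglandin E, lysophosphatidic acid and sphingosine 1-phosphate, and any symbol that starts with Gpr and a digit. Of the 9583 deposited genes, 53 matched, and 53 of 53 were found in the GENCODE M21 annotation of GRCm38, where 170 protein-coding symbols match the pattern. The pattern also takes in the Htr3 channel genes, of which 0 were among them.

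A G protein-coupled receptor spans the membrane and, when its ligand binds outside the cell, activates a heterotrimeric G protein inside. Receptors coupled to Gs raise cyclic AMP, those coupled to Gi/o lower it and open potassium channels, and those coupled to Gq release calcium from internal stores through phospholipase C. In the preoptic area of the hypothalamus (POA) such receptors carry the signals that shift body temperature, among them prostaglandin E2 in fever, histamine, opioids and adenosine.

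RNA came from POA neurons of naïve wild-type C57Bl/6J mice aged 6 to 14 weeks by the labels, dissociated, briefly cultured and imaged for calcium during cooling. Cold-sensitive neurons were aspirated from the top 7% of cold responses and cold-insensitive neurons from the bottom 14%, with 3 biological replicates of each type. About 100 to 200 neurons made up a replicate, gathered from the same coverslips for both types by the paper's methods. Both types thus share mouse strain, dissociation, dye and cooling, and differ by the response that was used to pick them.

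The deposited counts sum to 3316441 to 6818554 per cold-sensitive library and to 5276233 to 5712983 per cold-insensitive library. Levels are given as RPM, reads-per-million of the effective library size, in which 3 counts correspond to 0.449 to 0.923 RPM in cold-sensitive and 0.511 to 0.589 RPM in cold-insensitive libraries. Of 8 neuronal markers 8 were present and 0 passed edgeR's test, although 2 were higher when p was not adjusted (p under 0.05). Present were 0 of 8 microglial and 0 of 6 endothelial markers, 2 of 8 markers of astrocytes, 3 of 8 of oligodendrocyte precursors and 2 of 6 of oligodendrocytes. The authors kept only genes above a minimum level in each of the 6 libraries, so a missing marker or receptor is not analysed here and cannot be read as silent.

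That limit shaped which receptors could be compared. The 53 genes comprised 26 receptors with a known ligand and 27 Gpr-numbered genes, of 73 annotated under such a name. Present were 3 of 14 serotonin, 3 of 9 adrenergic, 2 of 4 histamine, 2 of 4 opioid, 2 of 5 somatostatin and 1 of 5 muscarinic receptor genes. The GABA-B subunit genes and the cannabinoid receptor gene Cnr1 were complete (3 of 3). Of 5 dopamine, 2 corticotropin-releasing hormone, 2 neurotensin, 6 lysophosphatidic acid and 5 sphingosine 1-phosphate receptor genes 0 were in the table. Of 11 receptors of the pattern that are best known from glia or blood vessels, among them Gpr17, Gpr37l1, Gpr34, Lpar1 and S1pr1, 0 were in the table.

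Levels between genes were compared as RPM per kilobase of exon. The most abundant receptor gene was Gabbr1, which encodes the GABA-binding subunit of the GABA-B receptor, at 89.6 RPM per kb in cold-sensitive and 89.7 RPM per kb in cold-insensitive neurons. It ranked 303 among all genes of the table with an annotated length. Next came Gpr158, an orphan-named class C receptor reported to bind glycine, at 55.4 RPM per kb in cold-sensitive and 49.1 RPM per kb in cold-insensitive neurons, and Gpr85, a brain-enriched orphan receptor, at 40.6 and 44.3 RPM per kb in these types. By the mean over the 6 libraries, Adcyap1r1, the PAC1 receptor for the peptide PACAP, and the galanin receptor gene Galr1 followed. They were at 33.8 and 24.2 RPM per kb in cold-sensitive and 20.8 and 17.1 RPM per kb in cold-insensitive neurons. In cold-insensitive neurons alone the histamine receptor gene Hrh1 lay above both, at 26.9 RPM per kb. Gpr165, Cckbr and Calcr lay above Galr1 there, at 17.3 to 18.8 RPM per kb. The ranges of Adcyap1r1 and Galr1 overlapped in both types, and those of Gpr158 and Gpr85 in cold-insensitive pools, so the order within these pairs lies in part within the spread of the pools. Of the 53 genes 14 reached a mean of 10 RPM per kb, and the lowest were Gpr155, Gpr45 and Hrh2, at 1.11 to 1.24 RPM per kb over the 6 libraries. Summed over the 53 genes the RPM were 2577 to 3299 in cold-sensitive and 2805 to 3250 in cold-insensitive libraries, which overlap.

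**Figure D1:**
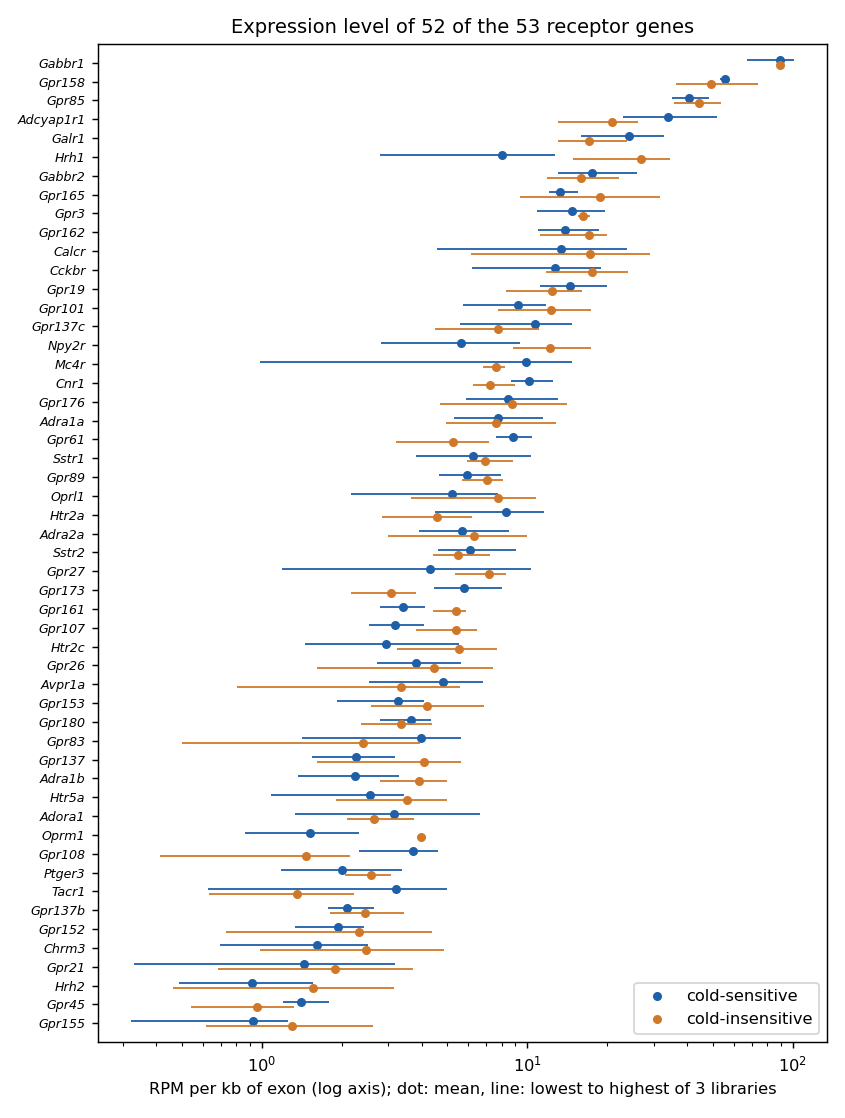
Expression level of 52 of the 53 receptor genes in RPM per kb of exon on a log axis, with the mean (dot) and the lowest to highest library (line) of 3 cold-sensitive (blue) and 3 cold-insensitive (orange) pools. Gabbr1 lies at the top near 89.7 RPM per kb in both types, and the lines of Hrh1 do not overlap.

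Cold-sensitive and cold-insensitive neurons differed by test in a single receptor gene of those in the table. The 117 annotated genes of the pattern outside the table could not be compared. A receptor gene almost absent from the pools of 1 type would have been left out by the authors' filter. Of the 53 genes, edgeR's quasi-likelihood test called 1 lower and 0 higher in cold-sensitive neurons, at an adjusted p of at most 0.05 over all 9583 genes. Of all genes 0.835% of genes were called lower and 0.334% higher, 1.17% in all, and 1 of 53 is 1.89%, so the count was near that of the background. At an unadjusted p under 0.05 there were 3 of the 53 (5.66%), 1 higher and 2 lower, against 10.7% of all genes. DESeq2 and limma also called 1 gene lower and 0 higher. The median log2 fold change of the 53, taken as cold-sensitive minus cold-insensitive, was -0.22, beside 0.00134 for the whole table.

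The gene that fell was Hrh1, which encodes the Gq-coupled histamine H1 receptor, the target of sedating antihistamines. Hrh1 was at 12.5, 37.5 and 56.8 RPM in cold-sensitive replicates 1 to 3, against 66.3, 140 and 153 RPM in cold-insensitive replicates 1 to 3. Every cold-sensitive pool lay below every cold-insensitive pool, and replicate 1 was the lowest of its type in both. The means were 35.6 ± 22.2 RPM in cold-sensitive and 120 ± 46.8 RPM in cold-insensitive neurons (SD, n = 3 pools each), a 3.37-fold lower level. The log2 fold change of Hrh1 was -1.74, with a standard error of 0.43 and a 95% interval of -2.63 to -0.85 (edgeR adjusted p = 0.0478, 0.0141 from DESeq2). Within the numbered replicates the cold-insensitive pool had 5.32, 3.73 and 2.69 times the level of the cold-sensitive pool. As the types did not overlap, any pairing of these pools gives the same direction. In pools of cells, fewer cells that hold a transcript and less of it per cell cannot be told apart.

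The call of Hrh1 was close to the threshold. It was lost without cold-sensitive replicate 1 (edgeR adjusted p = 0.0918) or 2 (0.132), without cold-insensitive replicate 2 (0.281) or 3 (0.226), and with robust dispersion (0.0537), while the log2 fold change stayed between -2.26 and -1.34 when single libraries were left out. Hrh1 (ENSMUSG00000053004.9) lies on chromosome 6 (GRCm38, 114397936 to 114483296, forward strand), and its exons overlap no other protein-coding gene. Histamine H1 receptors are also known from astrocytes and endothelium, so markers of non-neuronal cells are given beside it. Of 6 endothelial and 8 microglial markers 0 were in the table. The 2 astrocyte markers in the table summed to 117 to 149 RPM in cold-sensitive and 109 to 339 RPM in cold-insensitive libraries. Of these 0 of 2 passed edgeR's test or had an unadjusted p under 0.05, while the defining astrocyte genes Gfap, Aqp4 and Aldh1l1 were not in the table. A marker below the authors' minimum level in a single library was left out, so missing markers do not show that these cells were absent from the pools. The 3 markers of oligodendrocyte precursors summed to 47.6 to 57.9 RPM in cold-sensitive and 463 to 503 RPM in cold-insensitive libraries. Of these 3, Pdgfra and Cacng4 fell, and 1 had a fold change above 0 and was not called. Oligodendrocyte markers went the other way. The 2 in the table summed to 180 to 1071 RPM in cold-sensitive and 27.3 to 325 RPM in cold-insensitive libraries, which overlap, and edgeR called 1 higher. The part of any of these cell types in the difference in Hrh1 was not tested.

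**Figure D2:**
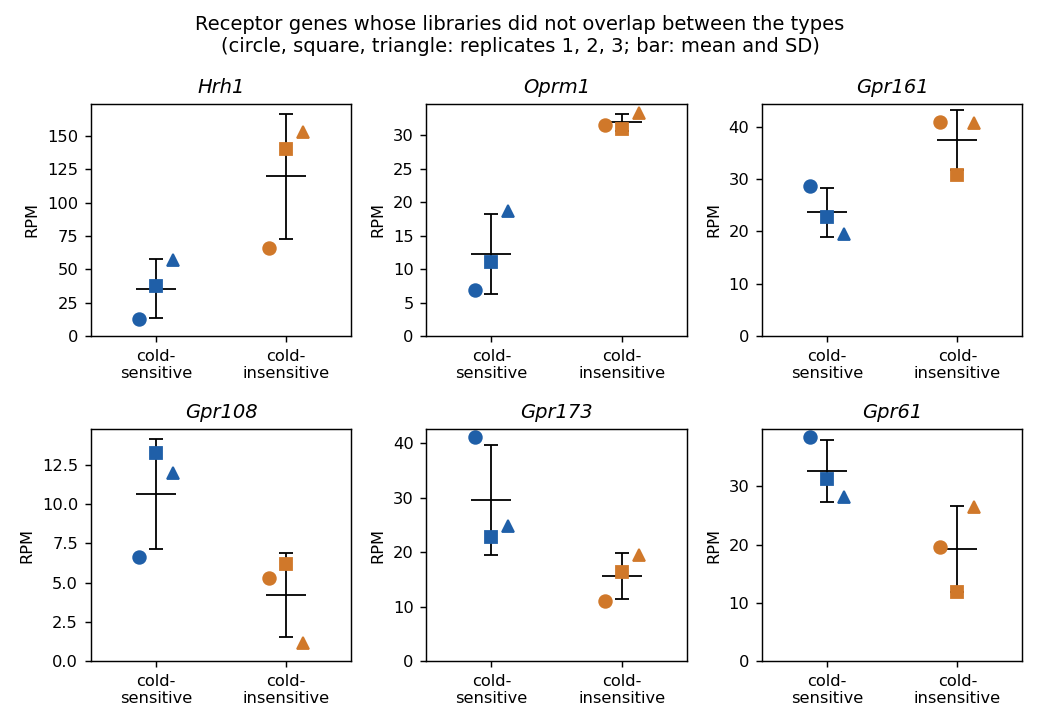
RPM of the 6 receptor genes whose libraries did not overlap between the types, with cold-sensitive pools (blue) left and cold-insensitive pools (orange) right, symbols for replicates 1 to 3, and bars for mean and SD. Hrh1, at 35.6 RPM in cold-sensitive pools, against 120 RPM in cold-insensitive pools on average, was the gene called by edgeR, and the other 5 were not.

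For 6 of the 53 genes (11.3%) the libraries of the types did not overlap, 3 lower and 3 higher in cold-sensitive neurons. Of all genes 8.20% were lower and 7.85% higher without overlap, 16.0% in all, so a share this size was no more than the background. Beside Hrh1 these were Oprm1 and Gpr161, which lay lower, and Gpr108, Gpr173 and Gpr61, which lay higher, and none of these 5 passed the test.

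Oprm1, which encodes the Gi/o-coupled mu opioid receptor, was at 6.95, 11.1 and 18.7 RPM in cold-sensitive replicates 1 to 3, against 31.5, 31.0 and 33.4 RPM in cold-insensitive replicates 1 to 3. The cold-insensitive pools were alike and the cold-sensitive pools spread over a 2.69-fold range. The means of Oprm1 were 12.2 ± 5.98 and 32.0 ± 1.26 RPM (SD, n = 3 pools each, cold-sensitive and cold-insensitive), and the log2 fold change was -1.37 with a standard error of 0.61 (edgeR adjusted p = 0.395). Its unadjusted p was 0.0341, and 96 bases of its exons overlap Ipcef1 on the opposite strand, where reads counted without strand cannot be told apart.

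Gpr161, a receptor of the primary cilium that restrains hedgehog signalling, was at 19.5 to 28.7 RPM in cold-sensitive and 30.8 to 40.9 RPM in cold-insensitive pools (log2 fold change -0.67, edgeR adjusted p = 0.727). Gpr173, an orphan of the same brain-enriched family as Gpr85, was at 22.8 to 41.1 RPM in cold-sensitive pools, against 11.1 to 19.4 RPM in cold-insensitive pools (log2 fold change 0.92, edgeR adjusted p = 0.648). Gpr61, an orphan receptor with constitutive activity, was at 28.2 to 38.5 RPM in cold-sensitive pools, against 11.8 to 26.5 RPM in cold-insensitive pools (log2 fold change 0.76, edgeR adjusted p = 0.711). Gpr108, a Golgi protein whose relative is Gpr107, was at 6.66 to 13.2 RPM in cold-sensitive pools, against 1.18 to 6.17 RPM in cold-insensitive pools, and the lowest of these values rests on 6 counts in replicate 3 (log2 fold change 1.33, edgeR adjusted p = 0.606). The standard errors of these 4 fold changes were 0.51 to 0.80, so changes of this size were not resolved by 3 pools against 3.

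Receptors for amines and acetylcholine numbered 9, of which Hrh1 fell and 8 did not pass the test, with a median log2 fold change of -0.60. The serotonin receptors Htr2c and Htr2a, both Gq-coupled, pointed in opposite directions. Htr2c was at 51.5, 13.5 and 17.4 RPM in cold-sensitive replicates 1 to 3, against 71.9, 30.2 and 52.6 RPM in cold-insensitive replicates 1 to 3 (log2 fold change -0.91, edgeR adjusted p = 0.592). Htr2a was at 25.2, 64.6 and 50.0 RPM in cold-sensitive pools, against 26.1, 15.9 and 34.8 RPM in cold-insensitive pools (log2 fold change 0.87, adjusted p = 0.594). Htr2c was lower in 3 of 3 numbered replicates, but the pools of the types overlapped for both genes. The reads of Htr2a per read of Htr2c were 0.489, 4.77 and 2.88 in cold-sensitive and 0.363, 0.528 and 0.66 in cold-insensitive replicates 1 to 3, a ratio chosen after the values had been seen.

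Among the adrenergic receptors, Adra1b, Gq-coupled, was at 4.63 to 11.1 RPM in cold-sensitive and 9.43 to 16.9 RPM in cold-insensitive pools (log2 fold change -0.81, edgeR adjusted p = 0.793). The rest of this group was named after its values were seen. Adra1a, also Gq-coupled, was highest in replicate 2 of both types, at 100 RPM in the cold-sensitive and 112 RPM in the cold-insensitive pool, with 46.3 to 57.0 RPM in the other cold-sensitive and 43.1 to 44.2 RPM in the other cold-insensitive pools. Its log2 fold change was 0.03 with a 95% interval of -0.82 to 0.87, which leaves out a 2-fold difference in either direction. Adra2a, the Gi/o-coupled alpha-2A receptor (-0.15), the serotonin receptor Htr5a (-0.46), the Gs-coupled histamine receptor Hrh2 (-0.77) and the muscarinic receptor Chrm3 (-0.60) had log2 fold changes whose 95% intervals reached past a 2-fold decrease. Each of these 4 had an adjusted p of 0.828 or more from edgeR. The interval of Adra2a, -1.32 to 1.02, also reached past a 2-fold increase.

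**Figure D3:**
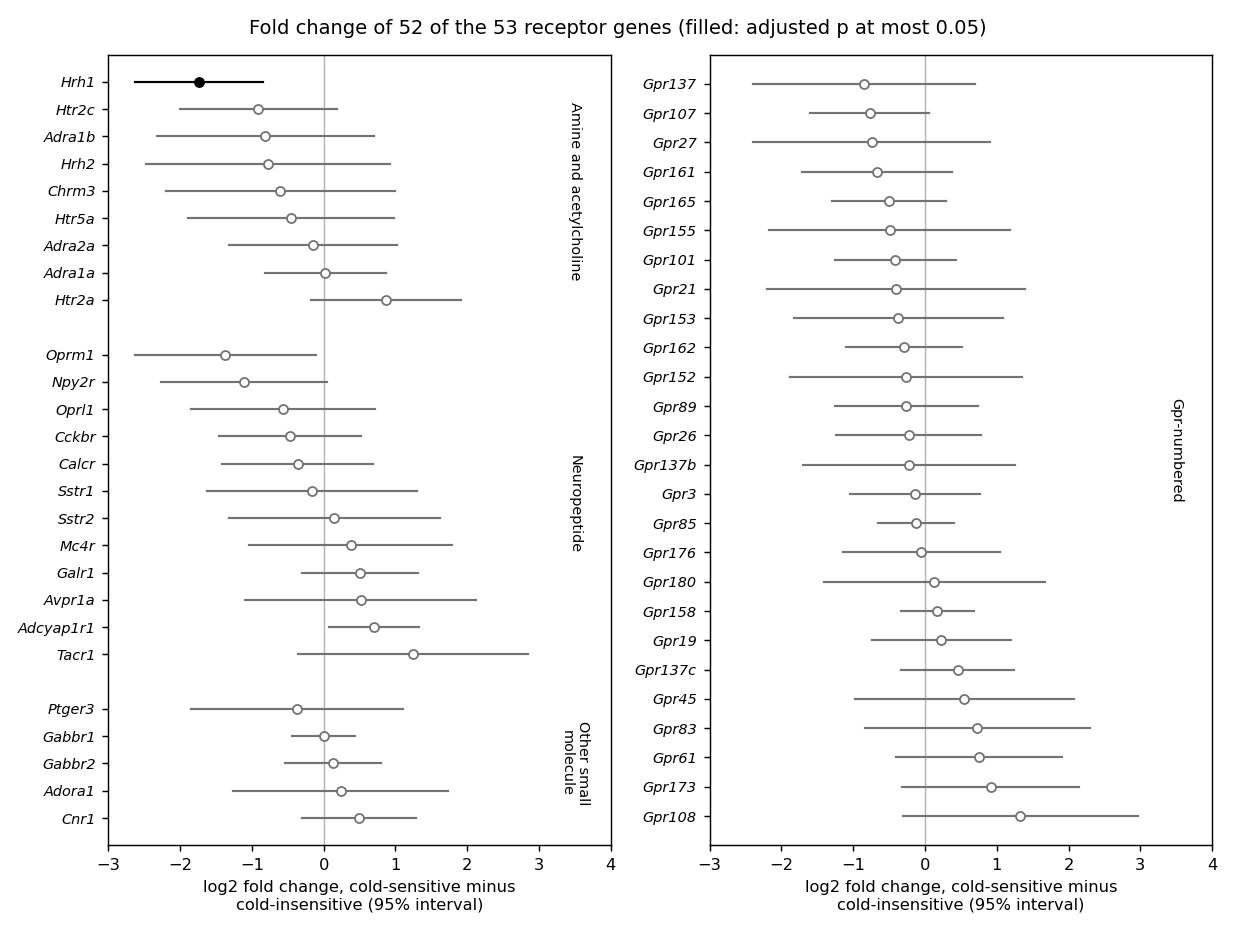
Log2 fold change (cold-sensitive minus cold-insensitive) of 52 of the 53 receptor genes with its 95% interval from edgeR, grouped by ligand on the left and with the Gpr-numbered genes on the right. The filled point is Hrh1, at -1.74 the only gene at an adjusted p of at most 0.05, and the short intervals belong to abundant genes such as Gabbr1, Gpr158 and Gpr85.

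Neuropeptide receptors numbered 12 and 0 of them passed by edgeR or DESeq2. Without adjustment, p was under 0.05 for 1 that was higher and 1 that was lower, 16.7% of the 12 against 10.7% of all genes. Their median log2 fold change was -0.00418, and -0.12 to 0.18 without single libraries. Adcyap1r1, whose receptor couples to Gs, was at 341, 177 and 151 RPM in cold-sensitive replicates 1 to 3, against 173, 152 and 86.4 RPM in cold-insensitive replicates 1 to 3. It was higher in 3 of 3 numbered replicates, but its lowest cold-sensitive pool lay below the highest cold-insensitive pools (log2 fold change 0.70, standard error 0.31, edgeR adjusted p = 0.383).

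Npy2r, the Gi/o-coupled Y2 receptor that neurons use to limit their own peptide release, was at 31.9, 9.53 and 15.9 RPM in cold-sensitive replicates 1 to 3, against 30.0, 34.6 and 58.5 RPM in cold-insensitive replicates 1 to 3 (log2 fold change -1.10, edgeR adjusted p = 0.496). Its pools overlapped through cold-sensitive replicate 1. Tacr1, the Gq-coupled receptor for substance P, was at 4.05, 25.8 and 32.4 RPM in cold-sensitive pools, against 4.09, 14.4 and 7.86 RPM in cold-insensitive pools (log2 fold change 1.24, standard error 0.78, edgeR adjusted p = 0.632). Replicate 1 was the lowest in both types. Galr1, coupled to Gi/o, was at 47.8 to 97.6 RPM in cold-sensitive and 39.0 to 71.1 RPM in cold-insensitive pools (log2 fold change 0.50, edgeR adjusted p = 0.734).

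Other peptide receptors, named after their values were seen, differed more between pools of one type than between types. Mc4r, the Gs-coupled melanocortin receptor of energy balance, was at 38.8, 2.77 and 41.3 RPM in cold-sensitive replicates 1 to 3, against 19.1, 21.9 and 23.2 RPM in cold-insensitive replicates 1 to 3. The low pool rests on 9 counts, and the log2 fold change was 0.37 (standard error 0.68, edgeR adjusted p = 0.92) and -0.13 with the replicate number as a block. Calcr, the calcitonin receptor, was at 46.6, 17.8 and 92.7 RPM in cold-sensitive pools, against 113, 65.6 and 24.0 RPM in cold-insensitive pools (log2 fold change -0.36, edgeR adjusted p = 0.892). The cholecystokinin receptor Cckbr and the vasopressin receptor Avpr1a, both Gq-coupled, had log2 fold changes of -0.47 and 0.51 (edgeR adjusted p = 0.822 and 0.9).

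Peptide genes of the ligands were compared with their receptors in the same fit. Of 42 genes for ligand precursors and synthesis enzymes 18 were in the table, of which 3 fell and 1 rose in cold-sensitive neurons. That is 22.2%, against 1.17% of all genes. The list was drawn up with earlier results of these data known, so its share cannot be weighed against that of all genes. The receptors of these 4 that were in the table did not pass the test. Sst, which encodes somatostatin, was at 1.80 to 2.15 RPM in cold-sensitive and 321 to 863 RPM in cold-insensitive pools (log2 fold change -8.15, edgeR adjusted p = 5.97e-13). Its receptors Sstr1, at 7.82 to 21.2 RPM in cold-sensitive pools, against 12.1 to 18.1 RPM in cold-insensitive pools, and Sstr2, at 9.84 to 19.4 RPM in cold-sensitive pools, against 9.42 to 15.5 RPM in cold-insensitive pools, had log2 fold changes of -0.16 and 0.15, with 95% intervals of -1.62 to 1.30 and -1.31 to 1.61. The ligand gene thus differed by far more than either interval reaches.

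Gal, the galanin gene, was at 164, 116 and 152 RPM in the cold-sensitive pools, against 635, 177 and 293 RPM in the cold-insensitive pools, without overlap (log2 fold change -1.35, edgeR adjusted p = 0.0349), and its receptor gene Galr1, described above, an interval of -0.31 to 1.31. Pnoc, which encodes the precursor of nociceptin, was at 41.4, 31.7 and 61.9 RPM in cold-sensitive replicates 1 to 3, against 66.3, 163 and 237 RPM in cold-insensitive replicates 1 to 3 (log2 fold change -1.78, standard error 0.38, edgeR adjusted p = 0.0205). The pools did not overlap. The call of Pnoc was lost without cold-sensitive replicate 2 (edgeR adjusted p = 0.107) and without cold-insensitive replicate 2 (0.112) or 3 (0.198). That of Gal was lost without cold-sensitive replicate 2 (0.165) or 3 (0.0994) and without cold-insensitive replicate 1 (0.379), where the log2 fold change was -0.705, and with limma (0.0625) and robust dispersion (0.102). Oprl1, the nociceptin receptor gene, was at 8.11, 21.2 and 29.1 RPM in cold-sensitive pools, against 40.4, 13.7 and 33.0 RPM in cold-insensitive pools (log2 fold change -0.57, edgeR adjusted p = 0.834).

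Adcyap1, which encodes PACAP, rose, at 393 to 405 RPM in cold-sensitive and 19.8 to 139 RPM in cold-insensitive pools (log2 fold change 2.10, edgeR adjusted p = 0.00652, 0.105 from DESeq2 and 0.39 with robust dispersion), while the 95% interval of its receptor gene Adcyap1r1 was 0.07 to 1.33. Penk, which encodes the enkephalin precursor, had a log2 fold change of -0.41 (edgeR adjusted p = 0.788), beside -1.37 for Oprm1. Nts, the neurotensin gene and among the 4 most abundant of the list, had a log2 fold change of 0.78 (edgeR adjusted p = 0.249), and its receptors were not analysed here. Whether a ligand gene and its receptor gene changed by different amounts was not tested.

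**Figure D4:**
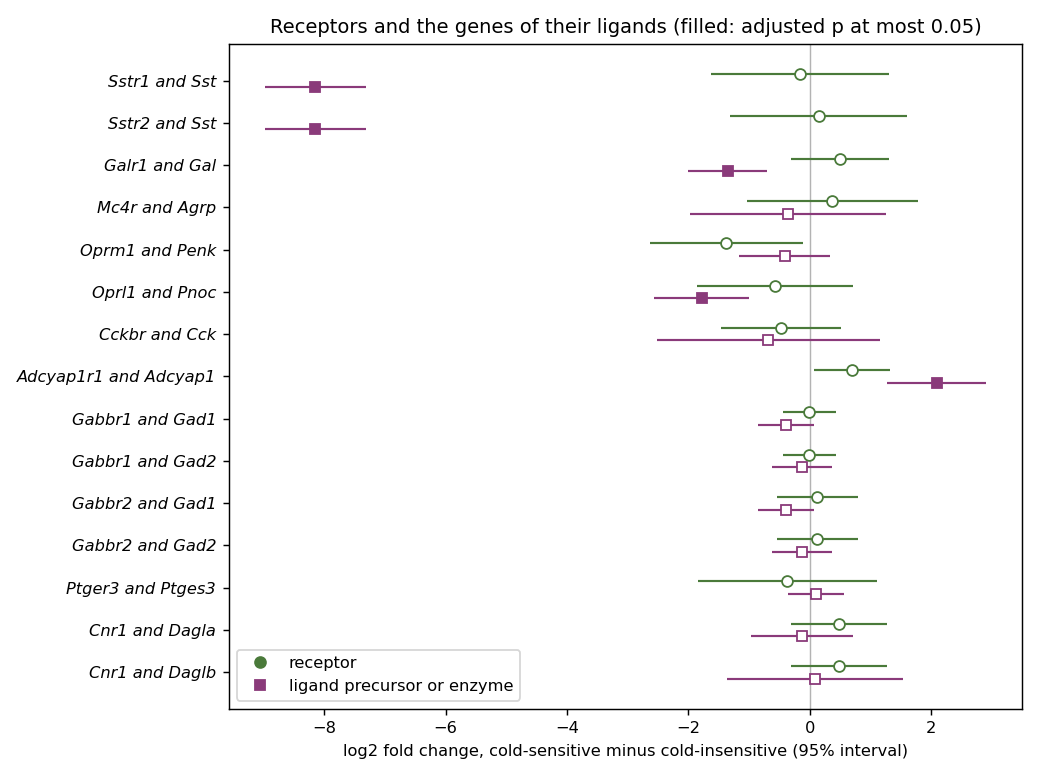
Log2 fold change (cold-sensitive minus cold-insensitive) with its 95% interval for 15 pairs of a receptor gene (circle) and a gene for its ligand or the enzyme that makes it (square), filled at an adjusted p of at most 0.05. Sst at -8.15, Pnoc at -1.78, Gal at -1.35 and Adcyap1 at 2.10 are filled, and no receptor in these pairs is.

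Receptors for GABA, cannabinoids, adenosine and prostaglandin numbered 5, and 0 passed edgeR or DESeq2 or had an unadjusted p under 0.05. The GABA-B receptor works only as a pair of its subunits, and both genes were the most precisely compared of this group. Gabbr1 was at 787, 777 and 524 RPM in cold-sensitive replicates 1 to 3, against 705, 702 and 683 RPM in cold-insensitive replicates 1 to 3. Its log2 fold change was -0.00167, with a 95% interval of -0.44 to 0.43, which corresponds to a ratio of 0.738 to 1.35. The sign of so small a value changes with the scaling (0.00898 with RLE size factors, 0.00659 with upper quartile scaling). Gabbr2, the subunit that contacts the G protein, was at 174, 89.2 and 87.2 RPM in cold-sensitive pools, against 148, 79.7 and 92.7 RPM in cold-insensitive pools, highest in replicate 1 of both types (log2 fold change 0.13, 95% interval -0.54 to 0.80). Per kb of exon, the ratio of Gabbr1 to Gabbr2 was 3.9 to 7.5 in cold-sensitive and 4.1 to 7.58 in cold-insensitive libraries, which overlap.

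The enzymes Gad1 and Gad2, which make GABA, had log2 fold changes of -0.39 and -0.12 (edgeR adjusted p = 0.594 and 0.924). Cnr1, Adora1 and Ptger3 were named after their values were seen. Cnr1, the cannabinoid CB1 receptor that reduces transmitter release, was at 55.9 to 80.3 RPM in cold-sensitive and 40.1 to 57.7 RPM in cold-insensitive pools (log2 fold change 0.49, edgeR adjusted p = 0.743). Adora1, the adenosine A1 receptor whose activation in the rodent brain lowers body temperature, was at 38.5, 7.69 and 8.24 RPM in cold-sensitive pools, against 12.1, 21.6 and 12.4 RPM in cold-insensitive pools. A single cold-sensitive pool was high, and 1162 bases of its exons overlap Mybph on the opposite strand (log2 fold change 0.24, 95% interval -1.26 to 1.73). Ptger3, the prostaglandin EP3 receptor through which preoptic neurons drive fever, was at 19.1, 8.30 and 6.74 RPM in cold-sensitive pools, against 11.8, 14.7 and 17.5 RPM in cold-insensitive pools. Its pools overlapped, and the 95% interval of its log2 fold change of -0.37 ran from -1.84 to 1.10, so neither a 2-fold increase nor a 2-fold decrease could be told from no change.

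Gpr-numbered genes numbered 27, and 0 passed edgeR or DESeq2 or had an unadjusted p under 0.05, with log2 fold changes from -0.85 to 1.33 and a median of -0.23. Gpr158 was at 460, 462 and 436 RPM in cold-sensitive replicates 1 to 3, against 298, 300 and 606 RPM in cold-insensitive replicates 1 to 3. The cold-sensitive pools were alike and lay between the lowest and the highest cold-insensitive pool (log2 fold change 0.17, 95% interval -0.33 to 0.68). Gpr85 was at 143 to 198 RPM in cold-sensitive pools, against 145 to 218 RPM in cold-insensitive pools (log2 fold change -0.13, 95% interval -0.65 to 0.40). Gpr3, a receptor that activates Gs without a ligand, was at 29.7 to 53.6 RPM in cold-sensitive pools, against 42.3 to 46.9 RPM in cold-insensitive pools (log2 fold change -0.14, edgeR adjusted p = 0.96).

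The orphan receptors Gpr162, at 42.0 to 71.8 RPM in cold-sensitive pools, against 42.9 to 76.6 RPM in cold-insensitive pools, and Gpr165, at 54.7 to 70.7 RPM in cold-sensitive pools, against 42.8 to 144 RPM in cold-insensitive pools, also overlapped between the types (log2 fold changes -0.29 and -0.50). Gpr137, a lysosomal membrane protein, had the lowest fold change of the Gpr-numbered genes at -0.85 (standard error 0.75, edgeR adjusted p = 0.784). The Golgi protein gene Gpr107, named after its values were seen, was at 32.4 to 52.3 RPM in cold-sensitive and 48.8 to 82.6 RPM in cold-insensitive pools (log2 fold change -0.77, edgeR adjusted p = 0.513), opposite in sign to its relative Gpr108. Gpr101 (-0.41), Gpr27, of the family of Gpr85 and Gpr173 (-0.74), and Gpr83 (0.73), also named after their values were seen, had edgeR adjusted p of 0.819 to 0.831.

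Sorted by G protein, the 13 receptors coupled to Gi/o had a median log2 fold change of -0.15 with 0 called, the 9 coupled to Gq a median of -0.47 with Hrh1 called, and the 4 coupled to Gs a median of 0.00678 with 0 called. Leaving out single libraries moved the Gi/o median to between -0.25 and 0.0349, the Gq median to between -0.69 and -0.13 and the Gs median to between -0.33 and 0.44, so the Gi/o and Gs medians had no stable sign. The Gq median stayed below 0, but of the 9 genes 5 had a fold change below 0 and 4 above. With the replicate number as a block the Gs median was -0.31. The machinery behind the receptors was taken as 40 genes for G protein alpha subunits, adenylyl cyclases, phospholipases C, receptor kinases, arrestins and effectors. Of these 31 were in the table and 0 passed edgeR's test, with a median log2 fold change of -0.17. The unadjusted p was under 0.05 for 2 that were higher and 1 that was lower, 9.68% of the 31 against 10.7% of all genes. The most abundant were Gnas, which encodes the alpha subunit of Gs, at 1523 ± 78.5 RPM in cold-sensitive and 1538 ± 111 RPM in cold-insensitive neurons, and Prkacb, a catalytic subunit of protein kinase A, at 1253 ± 197 and 1151 ± 166 RPM (SD, n = 3 pools each). Gnao1 and Gnaq, for the alpha subunits of Go and Gq, had log2 fold changes of -0.15 and -0.16. Adcy7, an adenylyl cyclase named after its values were seen, was at 51.3, 43.7 and 28.5 RPM in cold-sensitive replicates 1 to 3, against 14.8, 9.59 and 5.89 RPM in cold-insensitive replicates 1 to 3. Its pools did not overlap, and its log2 fold change of 2.02 (standard error 0.60) had an adjusted p of 0.114 from edgeR and of 0.00914 from DESeq2. Of the 31 genes 3 (9.68%) did not overlap between the types, 1 higher and 2 lower, against 16.0% of all genes. The 2 lower were another adenylyl cyclase gene, Adcy8 (log2 fold change -1.11, edgeR adjusted p = 0.435), and Itpr1 (-0.84, 0.469).

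The precision of these comparisons differed widely between genes. For 5 of the 53 genes (9.43%), Gabbr1, Gabbr2, Gpr158, Gpr85 and Adra1a, the 95% interval lay within a 2-fold change in both directions, against 29.9% of all genes. The intervals of 22 genes reached past a 2-fold decrease only, those of 12 past a 2-fold increase only, and those of 14 past both. The receptors were expressed at lower levels than the table as a whole, with a median of 26.0 RPM against 45.6 RPM, and pools of one type spread more, with a median SD of 0.587 against 0.44 on the log2 scale. For 5 genes, Hrh1, Gpr108, Gpr83, Mc4r and Gpr21, the highest library exceeded the lowest by 10-fold or more, up to 14.9-fold for Mc4r. The wider range was in the cold-sensitive pools for 27 of the 53 genes. The exons of Gpr21 overlap those of Rabgap1 on the same strand, and those of 7 of the 53 genes overlap a gene on the opposite strand.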

How the data were processed

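RNA of 6 pools of POA neurons, 3 cold-sensitive and 3 cold-insensitive, was sequenced. By the paper's methods and the submitters' processing notes, reads were trimmed with Trimmomatic 0.36, aligned with STAR 2.5.4b to GRCm38.p6 and counted over exons of protein-coding genes with featureCounts of Subread 1.6.2, by default without strand. Raw counts as deposited by the authors were used here. The authors' normalized signal (RPM) was not used. The authors had left out genes with no count, or with less than 1 RPM, in at least 1 sample. Further columns hold the authors' fold changes, directions, p-values and means, and were not used.

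Counts were fitted over 9583 genes in R 4.3.3 with edgeR 4.0.16 (TMM, estimateDisp, legacy glmQLFit, glmQLFTest), on neuron type alone, with Benjamini-Hochberg adjustment. The standard error is the size of the log2 fold change (prior count 0.125) divided by the square root of F, and 95% intervals, not adjusted for many genes, use the moderated degrees of freedom. P-values set the difference between types against the spread between pools. Each pool combined neurons of several mice by the paper, so this is not a spread between single mice. RPM were computed from the counts and TMM, and exon lengths from GENCODE M21, in which 9504 genes matched by symbol. The floor rests on 3 counts and covers counting error only, as no molecular identifiers are named.

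Both types came from the same coverslips by the methods. Replicate numbers were therefore taken as pairs in the replicate-block alternative and in comparisons within numbered replicates, but not in the main fit. Deviations of same-numbered libraries correlated at 0.0438 to 0.0552 across genes, under the 0.1 set for counting numbers as pairs from the data. Alternatives were RLE, upper quartile and library size scaling, a mean of at least 5 CPM, DESeq2 1.42.0, limma 3.58.1 on log2(CPM + 1), robust dispersion, the replicate block and each library left out.

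The receptors, lists and pairs were chosen with earlier results of these data known. Named receptors were those called, those whose libraries did not overlap, the 10 largest fold changes, the 10 highest levels per kb, the highest of each group, and partners of named ligand genes. Of the ligand and machinery lists, the called and the 4 most abundant genes were to be named. Others are marked as named after their values were seen. Sequences of the receptor proteins were not used here. Values of 1 receptor gene and 1 marker gene are not reported here.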

Additional observations from a re-analysis of the deposited data

How the results depend on the processing

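The count of receptor genes called lower by edgeR was 1, and 0 with robust dispersion and 0 to 1 without single libraries. None was called higher under any alternative run. With the replicate number as a block, Hrh1 had a log2 fold change of -1.90 (edgeR adjusted p = 0.00376) and the counts of called receptors were 1 lower and 0 higher, as without it. Over all genes DESeq2 called 79 higher and 152 lower, against 32 and 80 by edgeR, and without single libraries edgeR called 8 to 29 higher and 20 to 63 lower. DESeq2 called 1 gene of the machinery list higher. Of the ligand list, DESeq2 called 0 higher and 3 lower, and robust dispersion 0 higher and 2 lower, against 1 and 3 by edgeR. Without single libraries 1 to 3 ligand genes were called lower. The median log2 fold change, without single libraries, ran from -0.22 to -0.0397 for all 53 receptors, -0.76 to -0.43 for amine receptors, -0.25 to -0.0635 for Gpr-numbered genes, -0.28 to 0.30 for small-molecule receptors and -0.69 to -0.13 for Gq-coupled receptors. Values of genes that were not called changed sign in places. Gabbr1 had 0.00898 with RLE size factors, 0.00659 with upper quartile scaling and 0.00876 with DESeq2, and Adra1a had -0.0073 with library sizes alone. With limma and with the replicate block, Mc4r had -0.27 and -0.13, and Adora1 -0.11 and -0.15. Without single libraries, log2 fold changes ran from -0.10 to 0.17 for Gabbr1, -0.28 to 0.44 for Gabbr2, -0.00057 to 0.60 for Gpr158, -0.27 to 0.0328 for Gpr85, -0.82 to 0.11 for Gpr165, -0.40 to 0.0466 for Gpr3 and -0.74 to 0.0894 for Sstr1. They ran from -0.25 to 0.40 for Sstr2, -0.37 to 0.63 for Adra1a, -0.57 to 0.35 for Adra2a, -1.37 to 0.25 for Hrh2, -1.05 to 0.35 for Chrm3 and -1.07 to 0.23 for Calcr. They ran from -0.0397 to 0.91 for Mc4r, -0.95 to 0.60 for Adora1, -0.73 to 0.0101 for Penk, -0.40 to 0.11 for Gad2, -0.0584 to 0.0434 for Gnas and -0.48 to 0.0598 for Gnaq. The causes were not tested. For 4 receptor genes a library held fewer than 10 counts, which limits what can be resolved for them.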
